A study of Homo sapiens with 9 samples.

Results

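The mitochondrial mRNAs of cytochrome c oxidase (MT-CO1, MT-CO2, MT-CO3), of ATP synthase (MT-ATP8, MT-ATP6) and of cytochrome b (MT-CYB) carried 11 of the 4429 distinct positions that were listed as N6-methyladenosine (m6A) sites in HepG2 cells. HepG2 is an established line from a human hepatocellular carcinoma. The positions were taken from 3 site lists, 1 per shRNA: shSETD2#1, shSETD2#2 and the non-specific control shRNA (shCtrl). All cells were stably infected with a lentivirus and selected with puromycin, so the control cells differ from the others in the shRNA they carry; SETD2 itself was not measured here. The labels name 3 replicates per shRNA and the same list for all 3, so each list is pooled and no value below has a replicate error. A site was a member if it lay on the plus strand of chrM (hg19) in the interval of a gene: 5905 to 7447 for MT-CO1, 7587 to 8271 for MT-CO2, 8367 to 9207 for MT-ATP8 and MT-ATP6 together, 9208 to 9992 for MT-CO3 and 14748 to 15888 for MT-CYB. The chrM sequence of hg19 is not the one used in later builds, so these positions do not match those of GRCh38.

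Mitochondrial DNA encodes core subunits of the respiratory chain. It is transcribed as long precursors that are cut into rRNAs, tRNAs and mRNAs inside the organelle, and the mRNAs have no introns and are mostly polyadenylated. Cytochrome b of complex III passes electrons towards cytochrome c, the oxidase (complex IV) passes them on to oxygen, and ATP synthase (complex V) uses the resulting proton gradient. SETD2 trimethylates a lysine of histone H3 on nuclear chromatin, and mitochondrial DNA is not packed with histones. In miCLIP, the assay named by the series, crosslinks of the m6A antibody to RNA are read out as C-to-T changes next to methylated adenosines. The labels' protocol describes immunoprecipitation of sonicated mRNA and mentions no crosslinking, so a listed C-to-T position is called a site below and not a methylated base. No sequence around the sites is given, since a genome of this build was not used here.

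The lists held 482 sites with shSETD2#1, 697 with shSETD2#2 and 3755 with shCtrl. The authors' score of a site is a whole number of at least 3, and its meaning is not stated. It was read here as the read depth of the site: with that reading, a binomial probability of the C-to-T reads exists that puts every site in the order of the running numbers in the names. The same order gives the number of changed reads, which is called reconstructed below, and a background rate per list of 1.43% with shSETD2#1, 1.00% with shSETD2#2 and 1.57% with shCtrl. Without molecular identifiers PCR copies may be counted too, so the 95% exact intervals cover counting error only. Library totals were not used here, and fewer cells, less RNA or a shallower library cannot be told apart from a lower score.

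The 6 genes kept about the same number of sites in all lists, with 7 sites with shSETD2#1, 6 with shSETD2#2 and 6 with shCtrl. Over the 4995 nt of their intervals this was 1.40, 1.20 and 1.20 sites per kb. They made up 1.45% of the sites with shSETD2#1, 0.861% with shSETD2#2 and 0.160% with shCtrl. A similar count in all lists also held for the other mitochondrial sites, which numbered 17, 20 and 19. These were 3.53%, 2.87% and 0.506% of the lists. Only 2 of the 11 member positions, both in MT-CYB, were in all 3 lists. Another 4 were in 2 lists and 5 in 1 list.

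**Figure D1:**
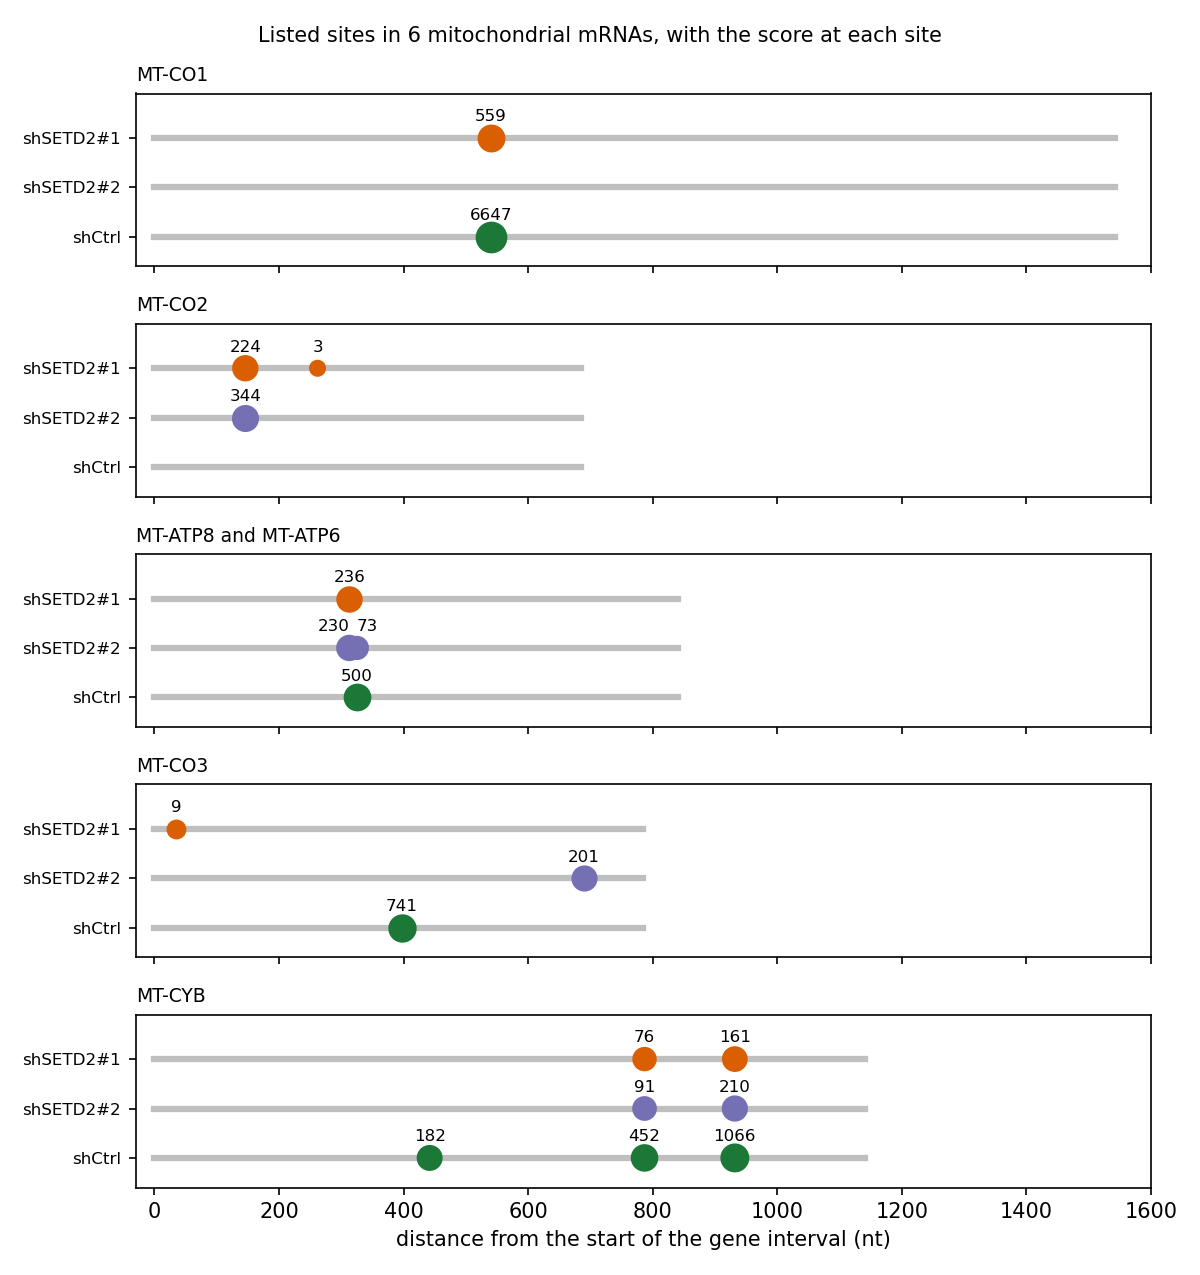
Each panel is a gene interval drawn to scale, with the distance from its start in nt on the horizontal axis and 1 row per pooled list. A dot is a listed site, its area grows with the logarithm of the score, and the number above it is the score. MT-CYB has the same 2 sites in every list, MT-CO2 has sites in both knockdown lists and none in the control list, and MT-CO3 has a different site in each list.

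Of the score summed over all mitochondrial sites, the 6 genes held 19.6% with shSETD2#1, 13.4% with shSETD2#2 and 18.9% with shCtrl. Over the 8 mitochondrial sites found in all 3 lists they held 6.50%, 6.76% and 4.18%, so shCtrl was then the lowest. Of the 6 genes, only MT-CYB has sites in this second comparison, and the MT-CO1 site is left out of it. Over all their sites the summed scores of the 6 genes were 1268, 1149 and 9588. Of these, the MT-CO1 site alone gave 559 with shSETD2#1 and 6647 with shCtrl, and shSETD2#2 had no site in the MT-CO1 interval. The chromosome 1 counterpart of this site, described below, had a score of 919 with shSETD2#2 and is not counted in these sums and shares. How far the placing of such reads affects the lower share with shSETD2#2 was not tested. The median score per site was 161, 205.5 and 620.5, close to that of the other mitochondrial sites (151, 161 and 739) and far above that of nuclear sites (10, 14 and 14).

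MT-CO1 encodes the oxidase subunit that holds the site where oxygen is reduced. Its single listed site on chrM, at position 6445 and 540 nt into the interval, had a score of 559 with shSETD2#1 and 6647 with shCtrl. In the control list it was number 3 by score among all 3755 sites and number 2 on the mitochondrial chromosome, and with shSETD2#1 it was number 7 of 482. The score was 11.9-fold lower with shSETD2#1 than with shCtrl (interval 10.9 to 13.0). Scaled to the 6 other mitochondrial sites found in all 3 lists, which were 10.2-fold lower together, it was still lower, with a log2 ratio of -0.22 in place of -3.57. The reconstructed C-to-T reads were 16 of 559 with shSETD2#1, a share of 2.86% (1.64 to 4.61), and 165 of 6647 with shCtrl, a share of 2.48% (2.12 to 2.89). Both intervals lay above the background rate of their list. The odds ratio of a changed read was 1.16 (0.642 to 1.95), and the difference did not pass (adjusted p = 0.973, two-sided Fisher's exact test over 198 shared sites).

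With shSETD2#2 the MT-CO1 site was not listed, but its counterpart in the nuclear genome was. Chromosome 1 carries a copy of part of the mitochondrial genome. RefSeq (GRCh38.p14) names pseudogenes of MT-ND1, MT-ND2, MT-CO1, MT-CO2, MT-ATP8, MT-ATP6 and MT-CO3 next to each other there and none of MT-CYB among them. Over the 46 mitochondrial and 172 plus-strand chromosome 1 positions of the 3 lists, the commonest distance between a pair was 560549, found for 5 pairs, while the next commonest was found for 2. For MT-CO1 the pair is mitochondrial position 6445 and chromosome 1 position 566994. The chromosome 1 position had a score of 919 with shSETD2#2 and was not listed with shSETD2#1 or shCtrl. Its C-to-T reads were 25 of 919, a share of 2.72% (1.77 to 3.99), which lies between the mitochondrial shares of 2.86% with shSETD2#1 and 2.48% with shCtrl. Set against the control score of the mitochondrial position, 919 is 7.23-fold lower than 6647 (6.75 to 7.76). Reads of a gene and of a near-identical copy can be placed at either position, and the authors' way of placing them is not stated in the sources used here. The absence of MT-CO1 from the shSETD2#2 list is therefore not a measurement of fewer reads. The MT-CO1 interval, moved by the distance of 560549, held 2 chromosome 1 entries in each list. Their summed scores were 30 with shSETD2#1, 945 with shSETD2#2 (of which 919 at 566994) and 251 with shCtrl.

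Over all such pairs, a list mostly held a single position of the pair. The pairs were chosen from these same lists, where a missing entry is common, so their counts do not show how reads were placed. Within 2 nt of the commonest distance there were 6 pairs, or 18 combinations of a pair and a list: 14 had only the mitochondrial or only the chromosome 1 position, 3 had neither, and 1 had both. The combination with both was the control site of MT-CO3 at position 9605. Its counterpart at chromosome 1 position 570153, at a distance of 560548, had a score of 24 with shSETD2#1 and 408 with shCtrl. Unlike for MT-CO1, the C-to-T shares of this pair were apart. With shCtrl the share was 2.29% at the mitochondrial position (17 of 741) and 6.13% at the chromosome 1 position (25 of 408). With shSETD2#1 the chromosome 1 position had 4 changed of 24 reads (16.7%).

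**Figure D2:**
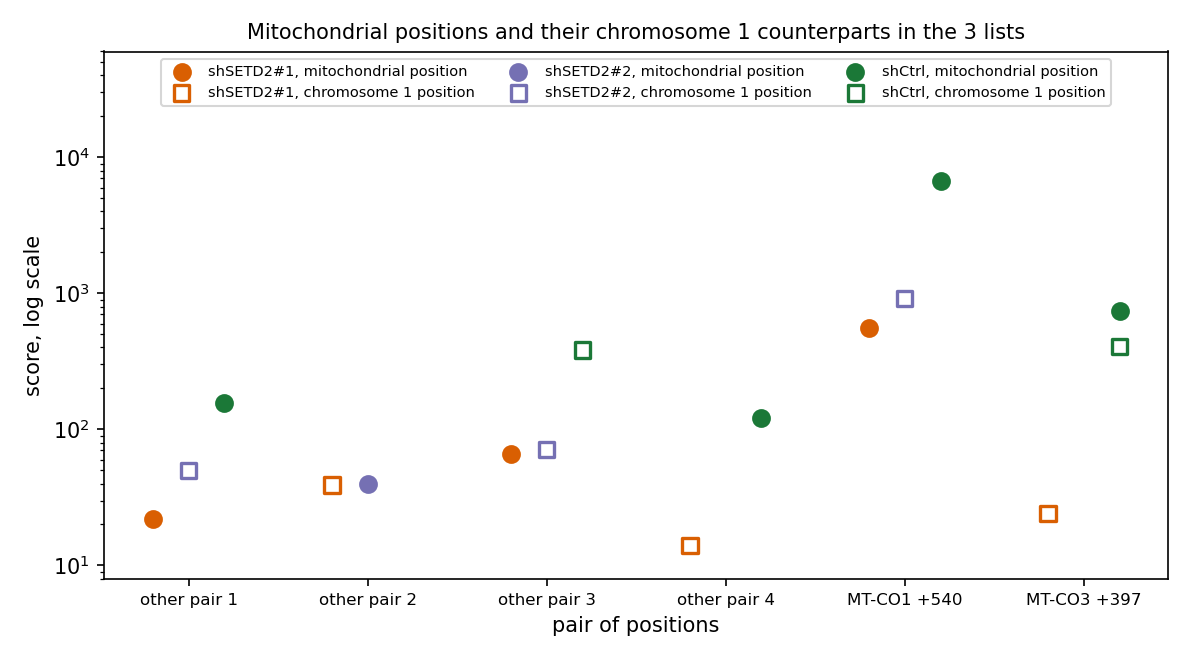
The score, on a log axis, is plotted for the 6 pairs of a mitochondrial and a chromosome 1 position. Filled circles are mitochondrial positions, open squares chromosome 1 positions, and colours are the pooled lists. The MT-CO1 site, 540 nt into its interval, is a circle with shSETD2#1 (559) and shCtrl (6647) and a square with shSETD2#2 (919). The only list with both symbols for a pair is shCtrl at the MT-CO3 site.

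MT-CO2 encodes the oxidase subunit that takes electrons from cytochrome c. Its site at position 7733, 146 nt into the interval, had a score of 224 with shSETD2#1 and 344 with shSETD2#2 and was not listed with shCtrl. The score with shSETD2#1 was 1.54-fold lower than with shSETD2#2 (1.29 to 1.83). The C-to-T reads were 3 of 224 with shSETD2#1 (1.34%, interval 0.277 to 3.86) and 5 of 344 with shSETD2#2 (1.45%, 0.474 to 3.36), and both intervals include the background rate of their list. A second site, at position 7849 and 116 nt further on, was listed with shSETD2#1 alone and rested on 1 changed read of 3. MT-CO2 was the only one of the 5 intervals without a control site, but a position without an entry has no value in these lists, so its control coverage is unknown.

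MT-ATP8 and MT-ATP6, small and large membrane subunits of the proton channel part of ATP synthase, are read from 1 mRNA with overlapping frames. Both sites of the interval lie 313 and 325 nt after its start, past the 207 nt that RefSeq gives for ATP8, and so in MT-ATP6. They were 12 nt apart. The upstream one, at position 8680, had a score of 236 with shSETD2#1 and 230 with shSETD2#2 and was not listed with shCtrl. The downstream one, at 8692, had a score of 73 with shSETD2#2 and 500 with shCtrl and was not listed with shSETD2#1. Thus shSETD2#2 listed both, and each of the other lists only one.

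At 8692 the score was 6.85-fold lower with shSETD2#2 than with shCtrl (5.35 to 8.88); scaled to the 6 other mitochondrial sites of all 3 lists this turned round, to a log2 ratio of 0.29. The C-to-T reads were 3 of 73 with shSETD2#2 (4.11%, 0.856 to 11.5) and 15 of 500 with shCtrl (3.00%, 1.69 to 4.90), an odds ratio of 1.38 (0.251 to 5.07) that missed the threshold (adjusted p = 1.0 over 217 shared sites, Fisher's exact test). At 8680 they were 6 of 236 with shSETD2#1 (2.54%, 0.939 to 5.45) and 2 of 230 with shSETD2#2 (0.870%, 0.106 to 3.11). The odds ratio between the hairpins was 2.97 (0.524 to 30.4), and this also missed it (adjusted p = 1.0 over 102 shared sites, Fisher's exact test). Both intervals are wide and include 1.

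MT-CO3, the oxidase core subunit that lies beside MT-CO1 and holds no metal centre, had a different site in each list. With shSETD2#1 it was position 9243, 35 nt into the interval, with 2 changed reads of 9. With shSETD2#2 it was position 9897, with 2 changed of 201 reads (0.995%, 0.121 to 3.55). With shCtrl it was position 9605, with 17 of 741 (2.29%, 1.34 to 3.65). The gaps were 362 and 292 nt, so no matching distance of up to 50 nt joins them. None of the 3 positions allows a comparison between lists at the same base.

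MT-CYB encodes cytochrome b, the only subunit of complex III made in mitochondria. It was the one gene with the same positions in all 3 lists. Position 15680, 932 nt into the interval, had a score of 161 with shSETD2#1, 210 with shSETD2#2 and 1066 with shCtrl. Position 15535, 145 nt upstream, had 76, 91 and 452. The remaining position, 15190, was listed with shCtrl alone, with 3 changed of 182 reads (1.65%, 0.341 to 4.74).

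Within MT-CYB the scores of the 2 recurring sites kept their proportion. The score at 15535 was 0.472 of that at 15680 with shSETD2#1 (interval 0.355 to 0.624), 0.433 with shSETD2#2 (0.335 to 0.557) and 0.424 with shCtrl (0.379 to 0.474). Such ratios within a list do not depend on library depth, and these 3 intervals overlap. The MT-CO1 site did not keep its proportion to the same MT-CYB site. Its score was 3.47 times that at 15680 with shSETD2#1 (2.91 to 4.16) and 6.24 times with shCtrl (5.84 to 6.66), and these intervals do not overlap. Reads of the MT-CO1 site can also be placed at its chromosome 1 counterpart, which has no entry and so no value in these lists. The MT-CO1 ratios may therefore depend on how such reads were placed, which was not tested. With shSETD2#2 the chromosome 1 counterpart had 4.38 times the score of the MT-CYB site (3.76 to 5.11). The MT-ATP6 site at 8692 had 0.348 of it with shSETD2#2 (0.263 to 0.456) and 0.469 with shCtrl (0.421 to 0.522). Without replicates, whether these ratios vary more than between libraries of the same shRNA was not tested.

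The 2 recurring MT-CYB sites differed widely in their C-to-T share. At 15680 the changed reads were 2 of 161 with shSETD2#1 (1.24%, 0.151 to 4.42), 2 of 210 with shSETD2#2 (0.952%, 0.116 to 3.40) and 15 of 1066 with shCtrl (1.41%, 0.790 to 2.31). Each share was under the background rate of its list. The odds ratios against shCtrl were 0.881 with shSETD2#1 (0.0969 to 3.85) and 0.674 with shSETD2#2 (0.0742 to 2.93), with adjusted p = 1.0 for both by Fisher's exact test. At 15535 the order of the names leaves only a lower bound, of 28.9% with shSETD2#1, 29.7% with shSETD2#2 and 18.6% with shCtrl, and the upper bound is 100% in all 3. In the order of the binomial probability the site was number 3 of 482 with shSETD2#1, 5 of 697 with shSETD2#2 and 3 of 3755 with shCtrl. It was the single member whose share could not be resolved, so it was left out of the main test of shares between lists. No genome sequence was used here, of hg19 or of HepG2 cells, so the source of the changed reads at 15535 was not tested.

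**Figure D3:**
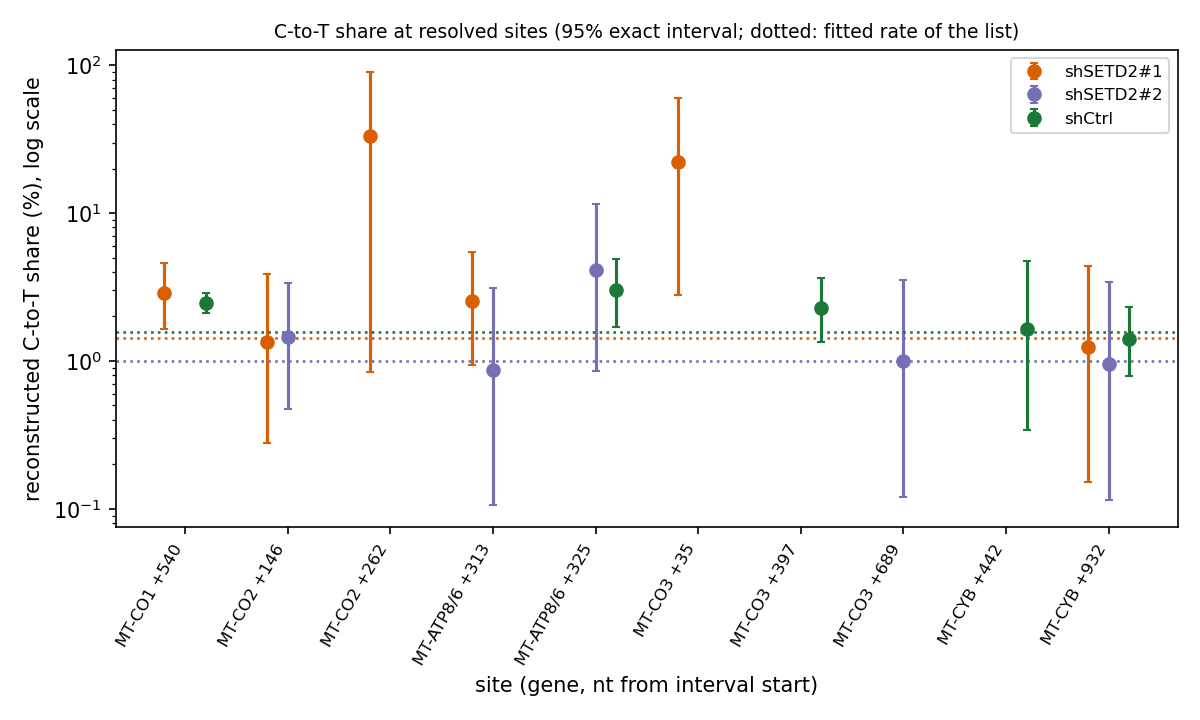
The reconstructed C-to-T share in percent, on a log axis, is shown for the 10 positions with a resolved read number, named by gene and by distance in nt from the interval start. Points are shares in a pooled list, bars 95% exact intervals for counting error, and dotted lines the background rate of each list (1.43%, 1.00% and 1.57%). The intervals of the MT-CO1 site lie above both lines of their lists, and those of the MT-CYB site at 932 nt include them.

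Shares with an interval above the background rate were counted over all list entries. With shSETD2#1 these were 3 of 7 entries in the 6 genes (MT-CO1 6445, MT-CO3 9243 and MT-CYB 15535), where 23.4% of the whole list passed. With shSETD2#2 they were 1 of 6 (MT-CYB 15535), where 27.8% passed. With shCtrl they were 3 of 6 (MT-CO1 6445, MT-ATP6 8692 and MT-CYB 15535), where 43.2% passed. A given share passes more easily at a deep site, and the MT-CO3 entry rests on 2 changed reads. MT-CYB 15535 was counted by its lower bound, and the source of its changed reads was not tested. Over resolved sites the median share of the 6 genes was 2.70% with shSETD2#1, 0.995% with shSETD2#2 and 2.29% with shCtrl. It was 2.44%, 2.08% and 2.02% at other mitochondrial sites and 12.5%, 10.0% and 13.0% at nuclear sites. Every entry needs 1 changed read or more, which keeps low shares out of shallow sites, and nuclear sites are shallow.

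Of the 6 control sites in these mRNAs, 3 were found again at the same base with shSETD2#1, or 50% (interval 11.8 to 88.2), and 3 with shSETD2#2. Over the whole control list 5.99% were found again with shSETD2#1 and 6.5% with shSETD2#2. All 6 members had a control score of at least 182; of the 442 control sites with a score of at least 100, 26.5% were found with shSETD2#1 and 23.8% with shSETD2#2. The other mitochondrial sites recurred in 10 of 19 cases with shSETD2#1 and 9 of 19 with shSETD2#2. The sets differed between hairpins only in MT-CO1 6445 for shSETD2#1 and MT-ATP6 8692 for shSETD2#2. MT-CO3 9605 and MT-CYB 15190 were in neither. In the other direction, 4 of 7 sites with shSETD2#1 and 3 of 6 with shSETD2#2 were not in the control list, beside 53.3% and 65% of the whole lists. MT-CO2 7733 and MT-ATP6 8680 were among them for both hairpins.

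At every shared member site the unscaled score was at least 4-fold lower in the knockdown list, 3 of 3 with each hairpin; this was also so at 70.2% of all sites shared with shSETD2#1 and 55.7% with shSETD2#2. With shSETD2#1 the MT-CYB scores were 5.95-fold (4.66 to 7.69) and 6.62-fold (5.61 to 7.86) lower at 15535 and 15680, beside the 11.9-fold of MT-CO1. With shSETD2#2 they were 4.97-fold (3.96 to 6.29) and 5.08-fold (4.37 to 5.91) lower. Both comparisons use the same control list. The median over the other mitochondrial sites was 7.39-fold with shSETD2#1 (10 sites, 4.15 to 16.8) and 7.10-fold with shSETD2#2 (9 sites, 4.73 to 21.6), and the members lay within these ranges. Scaled to the 6 other mitochondrial sites of all 3 lists, the MT-CYB sites turned round and were higher than in shCtrl, with log2 ratios of 0.78 and 0.62 with shSETD2#1 and 0.75 and 0.72 with shSETD2#2.

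**Figure D4:**
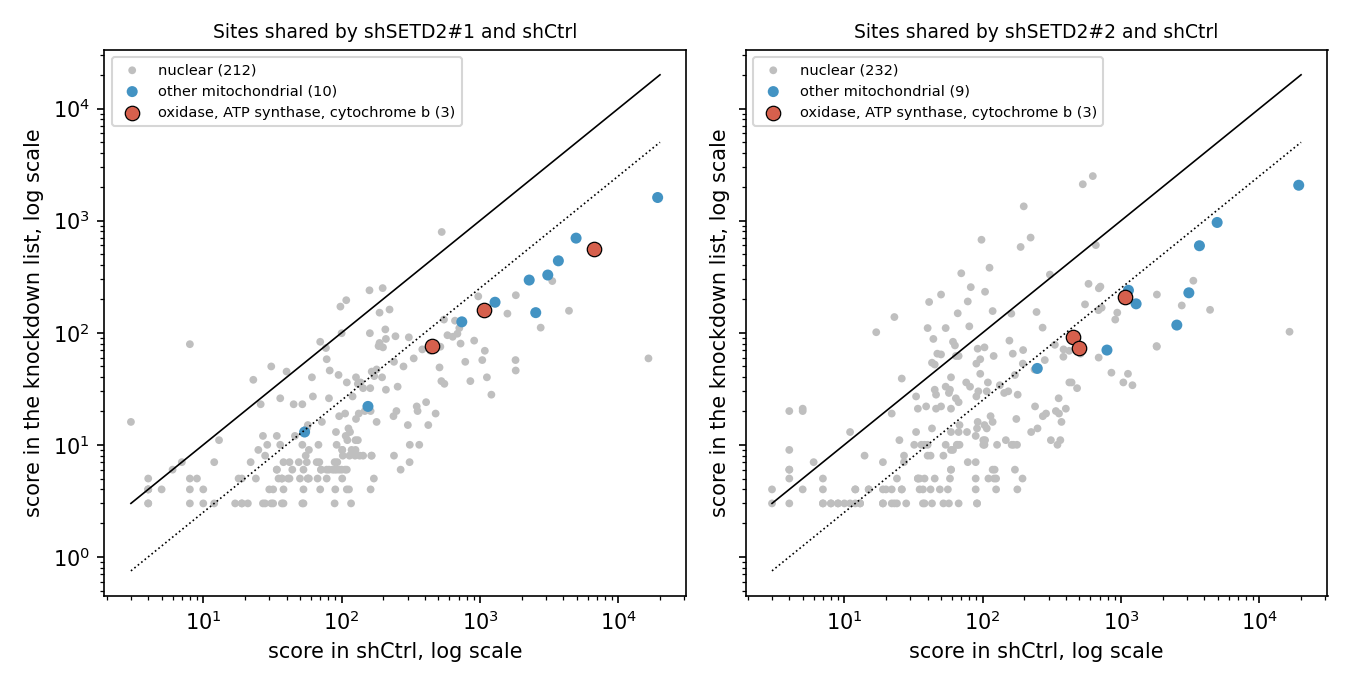
Scores at sites shared with the control list, knockdown list against shCtrl, both on log axes and not scaled for depth. Red points are the 6 genes (3 sites per panel), blue points other mitochondrial sites and grey points nuclear sites. The solid line is equality and the dotted line 4-fold lower. All red points lie below the dotted line, among the blue ones; after scaling to other mitochondrial sites the MT-CYB and MT-ATP6 points would lie above the control level.

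Between the hairpins, the 4 member sites shared by both had scores within 1.54-fold of each other. The score with shSETD2#1 was 1.54-fold lower at MT-CO2 7733, 1.20-fold lower at MT-CYB 15535 (0.873 to 1.65) and 1.30-fold lower at MT-CYB 15680 (1.06 to 1.61) than with shSETD2#2. At MT-ATP6 8680 the scores were 236 and 230, with an interval of the ratio that includes equality (0.809 to 1.17). None was 4-fold lower, against 13.4% of the 119 sites shared by the hairpins. All sites called were nuclear, and none of the 8 other mitochondrial sites was 4-fold lower either. The median was 1.19-fold lower over the 8 other mitochondrial sites and 1.70-fold over all 119.

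No member site had a C-to-T share that passed the test. By Fisher's exact test with Benjamini-Hochberg adjustment, 0 of 198 shared sites passed with shSETD2#1 in either direction, a share of 0%. At an unadjusted p under 0.05, 8 were higher (4.04%) and 1 was lower (0.505%). With shSETD2#2, 1 of 217 was higher (0.461%) and 2 were lower (0.922%), all nuclear; unadjusted, 11 were higher (5.07%) and 5 lower (2.3%). Between the hairpins 0 of 102 passed in either direction, and unadjusted 3 were higher with shSETD2#1 (2.94%) and 0 lower (0%). The resolved member sites, 2 in each comparison with shCtrl and 3 between the hairpins, were in none of these counts. These tests compare pooled lists of reads and not the conditions.

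Of the nearest sites outside the intervals, 3 were in the control list, and 2 of these had scores below the lowest member score of 182. Position 5685, 220 nt before MT-CO1, had a score of 121 with shCtrl and was not listed with either hairpin. Its counterpart at chromosome 1 position 566234 had a score of 14 with shSETD2#1. Position 10300, 308 nt after MT-CO3, had 327 with shSETD2#1, 227 with shSETD2#2 and 3091 with shCtrl. Position 14519, 229 nt before MT-CYB, had 121 and 308 with the 2 hairpins and was not listed with shCtrl, and 16014, 126 nt after MT-CYB, had 13 with shSETD2#1 and 54 with shCtrl. The member nearest to an edge was MT-CO3 9243, 35 nt inside, with a score of 9.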

How the data were processed

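The 3 site lists, each named by the labels for the 3 replicates of an shRNA, were used as deposited. Per the submitters' processing notes, reads were handled with FastQC 0.11.5, cutadapt 1.13 and Bowtie 1.1.2 on hg19; the site names carry the tool name rbsSeeker. The sources used here do not state its filters, the placing of reads with several matches or the pooling of replicates. The score of each site is the authors' deposited whole number, and the running number ends its deposited name.

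For each list a rate was searched at which P(at least m changed of n reads), with n the score, rises along the running numbers; m was bounded by the neighbours in this order. All sites could be placed, and 471 of 482, 676 of 697 and 3704 of 3755 had a single m. The method was tested on simulated lists, which cannot show what the score means. Sites were shared at equal position and strand. Intervals are exact (Clopper-Pearson, 95%). C-to-T shares at all resolved shared sites were tested by Fisher's exact test, two-sided, with Benjamini-Hochberg adjustment at 0.05. Every site of the 6 genes is reported. Python 3.11.15, numpy 2.4.6, scipy 1.17.1, pandas 2.3.3 and matplotlib 3.10.9 were used. The genes, rules and tests were chosen with earlier results of these data known, and the chromosome 1 comparison, the ratios within a list and the comparison of the hairpins were added after seeing the lists. Sites in nuclear genes of complexes III, IV and V were not analysed here, since an annotation of hg19 was not used.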

Additional observations from a re-analysis of the deposited data

Results flagged for a closer look

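A chromosome 1 position outside the 6 mitochondrial genes, 566994, had a score of 919 with shSETD2#2 and no entry in the control list. It was picked out because it lies at the distance 560549 from the MT-CO1 site, which shSETD2#2 lacks, in data that the counts of mitochondrial sites do not use.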

How the results depend on the processing

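No paired analysis was possible because each shRNA has 1 pooled list, and for the same reason no replicate could be left out. The counts of sites stayed within 1.5 times under a minimum score of 10 or 50, and those of control sites found again under a minimum score of 10 in both lists and matching within 10 or 50 nt; matching within 50 nt gave 4 of 6 with shSETD2#1, through the MT-ATP6 pair. Counting the chromosome 1 copy, chosen after seeing the data, gave 11, 8 and 9 sites (shSETD2#1, shSETD2#2, shCtrl), and 4 of 6 control sites found again with each hairpin. Scaling to the other mitochondrial sites of all 3 lists left 0 of 3 sites at least 4-fold lower with each hairpin, also without the deepest of them at position 2241. The log2 ratios then changed sign. At 15535 they were 0.78, or 0.54 without position 2241, with shSETD2#1 and 0.75, or 0.59, with shSETD2#2. At 15680 they were 0.62, or 0.38, and 0.72, or 0.55, and at 8692 they were 0.29, or 0.12. MT-CO1 kept its direction (-0.22, or -0.46). Over sites in all 3 lists alone the 6 genes held 6.50%, 6.76% and 4.18% of the mitochondrial score. Of the member sites, only the MT-CYB positions 15535 and 15680 then enter. No setting brought a member's C-to-T share past the threshold. The settings were at least 50 reads in both lists, or unresolved sites put at the middle of their bounds. For MT-CYB 15535 this middle cannot decide the question, since the upper bound is 100% in every list and the middle is an assumed value. Sites with few changed reads have wide intervals, and depth limits every share here.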
